A study of Mus musculus with 6 samples.

Results

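Molecular chaperones and co-chaperones were described in 2H11 cells kept with or without BMP4. The genes were taken by symbol: heat shock proteins of the Hspa, Hspb, Hspd, Hspe, Hsph and Hsp90 series, J-domain proteins (Dnaja, Dnajb and Dnajc), Bag1 to Bag6, the subunits of the cytosolic chaperonin (Tcp1 and the Cct genes), prefoldin subunits, Hyou1, Calr and Canx. The rule found 83 of the 11754 genes of the deposited gene table. They carried 82 symbols, since Hspa14 names 2 overlapping loci. All 83 averaged 1 FPKM or more across the 6 samples, which was required for testing. FPKM counts fragments per kilobase of RNA relative to the size of the library, so levels of different genes are compared per length.

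2H11 is a mouse cell line, labelled endothelial; the labels give C3H/HeJ as its strain, and as its source the axillary lymph node and, as cell type, vascular epithelium. After starvation, 3 samples were kept for 48 h with BMP4, a secreted bone morphogenetic protein, and 3 samples for 48 h without it. The labels do not tell separate cultures from repeats of 1 culture, so every p-value here reflects the spread among 6 libraries, which may be technical. RNA was polyadenylated and sequenced as strand-specific paired ends.

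Across genes, log2(FPKM + 1) correlated at 0.990 to 0.992 among the BMP4 samples, at 0.986 to 0.990 among the untreated samples and at 0.958 to 0.965 between the groups. Of 12 endothelial markers, 4 had values (Eng, Cd34, Flt1 and Egfl7), summing to 43.4 to 43.9 FPKM with BMP4 and 68.5 to 75.4 FPKM without it; Pecam1, Cdh5, Kdr, Tek, Tie1, Vwf, Emcn and Erg were not analysed here. That sum followed Cd34, at 25.1, 24.3 and 24.1 FPKM with BMP4 and 55.5, 50.9 and 50.3 FPKM without it, while Flt1 was higher in every BMP4 sample and Eng and Egfl7 overlapped between groups. All 8 fibroblast markers had values, summing to 1249 to 1260 FPKM with BMP4 and 2577 to 2647 FPKM without it. They did not move together: Col1a1, Col3a1, Dcn, Lum and Dpt were lower in every BMP4 sample, and Pdgfra, Pdgfrb and Thy1 were higher in every BMP4 sample. Of 6 leukocyte markers 3 had values, summing to 12.1 to 13.7 FPKM with BMP4 and 10.3 to 15.6 FPKM without it, and 4 epithelial markers were not analysed here. The part of these marker shifts in the chaperone results was not tested. In bulk RNA, fewer cells of a type and less RNA per cell cannot be told apart.

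Chaperones bind unfolded protein and release it after cycles of ATP use or by handing it on. In the cytosol, Hsp70 proteins are loaded by J-domain partners and emptied by nucleotide exchange factors such as the Hsp110 and BAG proteins, Hsp90 takes signalling proteins at a late stage, small heat shock proteins hold unfolded chains, and prefoldin passes actin and tubulin to the TRiC/CCT ring. The endoplasmic reticulum (ER) has its own Hsp70, BiP, its own Hsp90, GRP94, and the lectins calnexin and calreticulin, which hold glycoproteins such as collagen precursors. The unfolded protein response raises the ER set through an ER stress response element in the promoters, and heat shock factor raises the cytosolic set and the mitochondrial Hsp60 and Hsp10.

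With BMP4, 16 of the 83 genes were lower and 5 were higher, by limma's moderated test on log2(FPKM + 1) with Benjamini-Hochberg adjustment over all 10932 tested genes and a threshold of 0.05. Over all tested genes, 14.3% were called lower and 13.6% higher, so the shares among the chaperones were 19.3% and 6.02%. The genes that rose were the small heat shock proteins Hspb6 and Hspb1, the Hsp110 gene Hspa4l, the co-chaperone gene Bag3 and the J-domain gene Dnajb14. The median log2 fold change was -0.096, beside -0.0013 over all tested genes, and values ran from -0.66 for Hspa5 to 0.89 for Hspb6. 56 genes had a value below 0 and 27 a value above it. BMP4 and untreated samples did not overlap for 32 of the 83 genes, beside 45.5% of all tested genes. With FPKM rescaled to equal sums the split became 12 lower and 8 higher, beside 12.6% lower and 15.9% higher of all tested genes. It was 9 lower without any 1 of the 3 BMP4 samples and 10 lower without untreated replicate 2. Of all tested genes, 9.62%, 9.62% and 12.6% were lower without BMP4 replicate 1, 2 and 3. The share was 10.7% without untreated replicate 2.

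**Figure D1:**
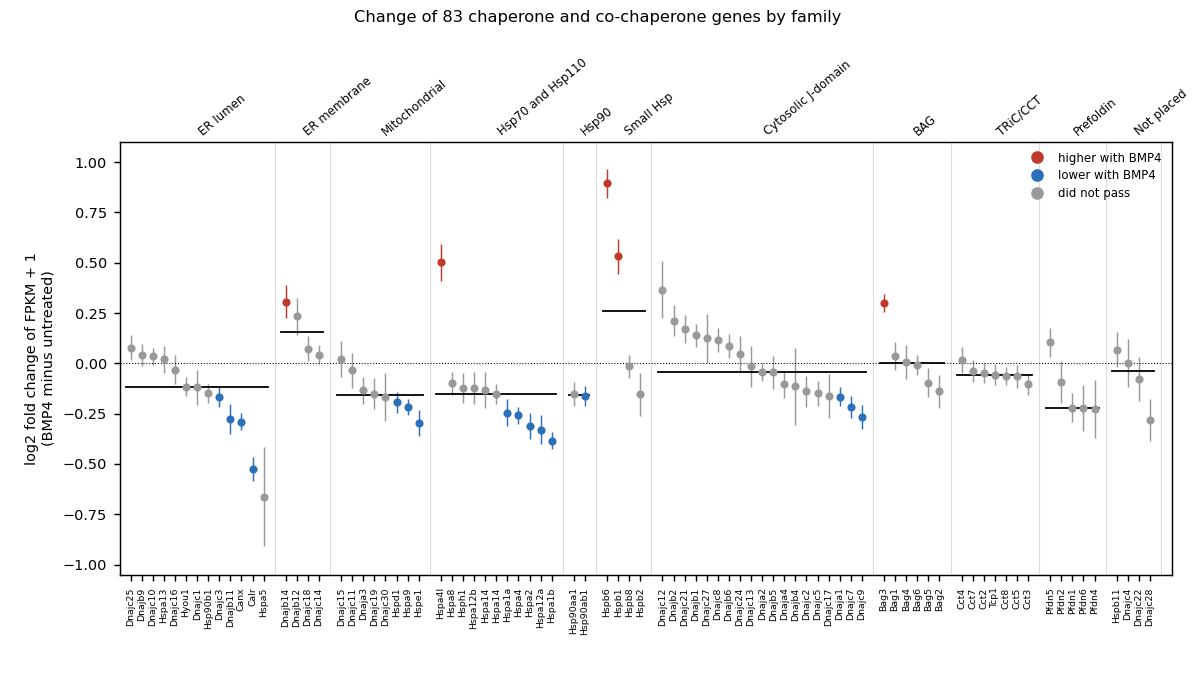
Log2 fold change of FPKM + 1 (BMP4 minus untreated, y axis) of the 83 genes by family (x axis); points are limma estimates, bars the standard error, black lines the median of a family, and colour the call. Hspb6 stands highest at 0.89, Calr is the lowest gene that passed at -0.53, and the wide bar of Hspa5 at -0.66 comes with an untreated replicate 1 far above the other samples.

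By compartment, 4 of 13 genes of the ER lumen (30.8%) and 3 of 8 mitochondrial genes (37.5%) fell, and 0 rose in either. In the cytosol 9 of 54 genes (16.7%) fell and 4 (7.41%) rose. The list called cytosolic here was not kept apart from nuclear proteins. Over all tested genes the shares were 14.3% lower and 13.6% higher. The cytosolic share lower was thus near that of all genes, and the share higher was below it. The medians of the log2 fold change were -0.12 in the ER lumen, -0.16 in mitochondria and -0.094 in the cytosol. Of the 4 J-domain genes whose proteins sit in the ER membrane and face the cytosol, Dnajb14 rose and 3 did not pass, and the 4 genes placed in no compartment (Hspb11, Dnajc4, Dnajc22 and Dnajc28) did not pass. Of these 4, Dnajc28 was at 1.39, 1.72 and 1.37 FPKM with BMP4, against 2.34, 1.66 and 2.11 FPKM without it, and it passed without untreated replicate 2 alone (adjusted p = 0.0419 by limma). The counts of these short lists moved with single samples. In the ER lumen 2 genes fell without BMP4 replicate 2, BMP4 replicate 3 or untreated replicate 2. In mitochondria 1 fell without BMP4 replicate 2, and in the cytosol 4 fell without BMP4 replicate 1 and 5 without BMP4 replicate 3 or untreated replicate 2. With equal sums, 7 cytosolic genes fell and 6 rose. By limma at an unadjusted p under 0.05, 0 genes of the ER lumen were higher and 7 lower. In mitochondria 0 were higher and 3 lower, and in the cytosol 8 were higher and 13 lower. Over all 10932 tested genes 2155 were higher and 2208 lower at that level. No test of a difference between compartments was made.

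The summed level shows the same compartments by amount of RNA. The 13 ER lumen genes summed to 954, 922 and 978 FPKM with BMP4, against 1273, 1146 and 1154 FPKM in untreated cells, a mean lower by 20.1%. Leaving out Hspa5, whose untreated values spread widely, the sums were 872, 841 and 891 FPKM with BMP4, against 1065, 1041 and 1047 FPKM without it. That mean was lower by 17.4%. All BMP4 samples were below all untreated samples in both versions. Mitochondrial chaperones summed to 279.5, 261 and 277 FPKM with BMP4, against 322, 313 and 310.0 FPKM in untreated cells. Cytosolic chaperones summed to 2303, 2262 and 2410 FPKM with BMP4, against 2527, 2368 and 2377 FPKM in untreated cells, and there the groups overlapped. The ER lumen thus held 26.2% ± 0.153 of all chaperone FPKM with BMP4 and 29.7% ± 0.496 without it (SD, n = 3 each), and the cytosol 64.0% ± 0.324 and 60.5% ± 0.346. The ER lumen genes without Hspa5 held 23.9% ± 0.181 of the same total with BMP4 and 26.2% ± 0.790 without it (SD, n = 3 each). In untreated replicate 1 they held 25.3%. These sums rest on a few abundant genes and are a description without a test. They were not rescaled, and the FPKM sum of all genes was itself lower by 2.85% on average with BMP4.

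In the ER lumen the lectin chaperones fell. Calr, which encodes calreticulin (chromosome 8, 84841850 to 84846934, GRCm38), was at 243, 238 and 262 FPKM with BMP4, against 376, 355 and 342 FPKM in untreated cells. Every BMP4 sample lay far below every untreated sample (log2 fold change -0.53 with an SE of 0.059, adjusted p = 7.02e-04 by limma), a 1.44-fold lower mean. Canx, the membrane-bound calnexin (chromosome 11, 50293961 to 50325673), was at 159, 155 and 159.9 FPKM with BMP4, against 188, 193 and 198 FPKM without it. The groups were again apart, with a smaller change (log2 fold change -0.29 with an SE of 0.043, adjusted p = 0.00259 by limma). Both calls held in every alternative run.

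BiP, the ER Hsp70 encoded by Hspa5 (chromosome 2, 34771970 to 34777547), had the most negative estimate of the 83 chaperone genes and did not pass. It was at 82.1, 81.0 and 87.3 FPKM with BMP4, against 207, 105 and 107 FPKM in untreated cells. The BMP4 samples were close together and below all untreated samples, but untreated replicate 1 was 1.96 times the mean of the other untreated samples (log2 fold change -0.66 with an SE of 0.24, adjusted p = 0.0865 by limma). Without that sample Hspa5 passed, with a log2 fold change of -0.34 and a limma adjusted p of 0.00381. Other ER lumen genes did not stand out in untreated replicate 1, where the highest ratio to the mean of the other untreated samples was 1.09 among the 12 genes besides Hspa5. Over all 83 chaperone genes that sample was the highest untreated sample for 47, with a median ratio of 1.06. Besides Hspa5 the ratio reached 1.37 there. Its FPKM sum over all genes was 273562, against 261775 and 256997 in untreated replicates 2 and 3.

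The remaining ER genes changed less. Hsp90b1, which encodes GRP94, was at 259, 249 and 262 FPKM with BMP4, against 289, 275 and 290.1 FPKM in untreated cells. Its groups did not overlap, yet it missed the threshold (log2 fold change -0.15 with an SE of 0.047, adjusted p = 0.0522 by limma), and it passed with trimmed-mean scaling (limma adjusted p = 0.0322). Dnajb11, a BiP partner also called ERdj3, fell to 33.9, 28.6 and 31.95 FPKM with BMP4, against 40.5, 38.6 and 36.0 FPKM without it (log2 fold change -0.28 with an SE of 0.074, adjusted p = 0.0304 by limma). Dnajc3, the J-domain protein p58IPK, was at 29.4, 26.5 and 28.1 FPKM with BMP4, against 30.9, 31.7 and 32.02 FPKM without it, and it lay just inside the threshold (log2 fold change -0.17 with an SE of 0.051, adjusted p = 0.0479 by limma). Hyou1, an ER exchange factor for BiP, was at 20.6 ± 0.695 FPKM with BMP4 and 22.4 ± 0.409 FPKM without it (SD, n = 3 each), with separate groups and a limma adjusted p of 0.11.

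Several BiP partners did not pass. Dnajb9 (ERdj4), which is strongly induced by ER stress, was at 9.57, 8.82 and 9.44 FPKM with BMP4, against 9.22, 8.78 and 8.97 FPKM without it, with overlapping groups (log2 fold change 0.041, 95% interval -0.092 to 0.17). Dnajc10 (ERdj5), an ER reductase, was at 73.2, 70.6 and 73.1 FPKM with BMP4, against 68.4, 71.4 and 72.0 FPKM without it, also overlapping (log2 fold change 0.034, 95% interval -0.066 to 0.13). The Hsp70-like Hspa13 had a log2 fold change of 0.019, Dnajc25 of 0.078, Dnajc16 of -0.031 and Dnajc1 (ERdj1) of -0.12, and none of these passed. The signs of these small values were not stable: that of Hspa13 turned without untreated replicate 1, and that of Dnajc16 without untreated replicate 2 or with equal sums. The call of Dnajb11 was lost (limma adjusted p in parentheses) without BMP4 replicate 2 (0.0871), BMP4 replicate 3 (0.0624), untreated replicate 1 (0.0747) or untreated replicate 2 (0.0862). That of Dnajc3 was lost without any 1 sample, with limma adjusted p from 0.0553 to 0.159, and with equal sums (0.149).

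**Figure D2:**
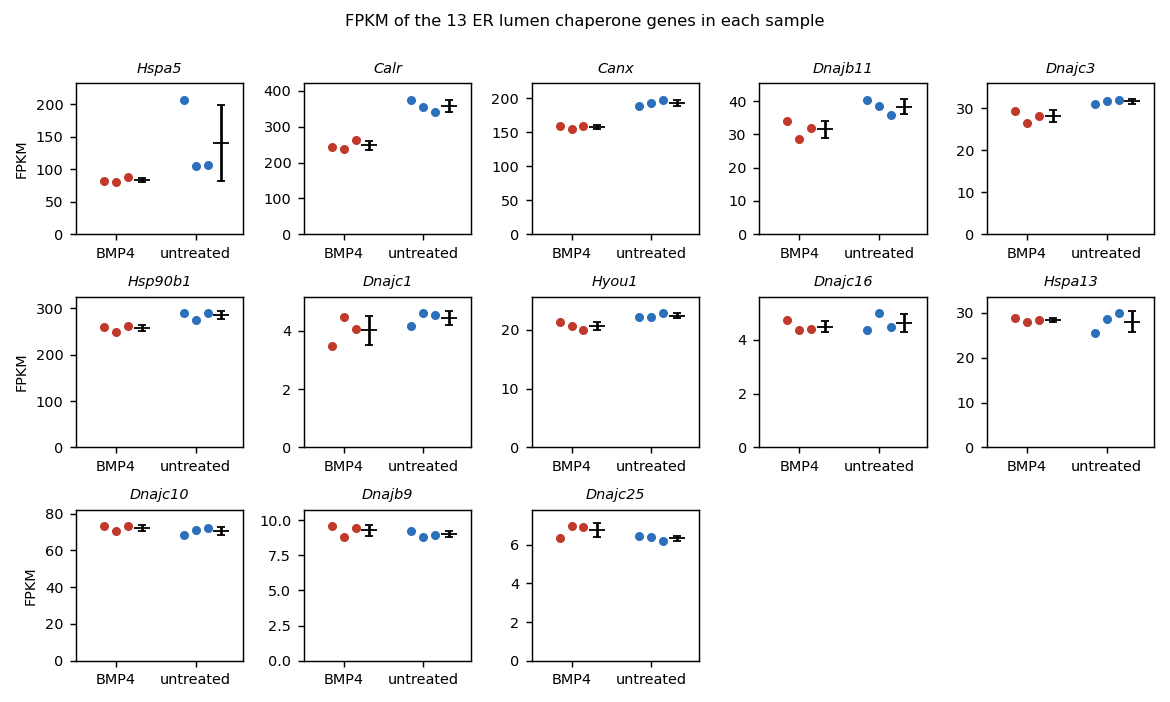
FPKM (y axis, from 0) of the 13 ER lumen genes in the 3 BMP4 and 3 untreated samples (points), with mean and SD beside them, ordered by log2 fold change. Calr and Canx separate fully, the untreated replicate 1 of Hspa5 stands at 207 FPKM, and Dnajc10, Dnajb9 and Dnajc25 overlap between groups.

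The promoters of 5 ER genes are shown because they hold the ER stress response element, through which the unfolded protein response acts. It was searched on both strands as CCAAT followed, after 9 bases of any kind, by CCACG, in windows from 250 bases before to 50 bases after the start (RefSeq, GRCm38.p6). It was present in 39 of 32851 promoters, or 0.119%. Of the chaperone genes 65 symbols had a promoter in the table, and 5 held the element, all 5 in the ER lumen list, which had 11 genes with a promoter. Below are the 220 bases before each start, 5′ to 3′ on the strand of the gene, with the element in capitals.
Hspa5, chr2:34771870-34772089, plus strand: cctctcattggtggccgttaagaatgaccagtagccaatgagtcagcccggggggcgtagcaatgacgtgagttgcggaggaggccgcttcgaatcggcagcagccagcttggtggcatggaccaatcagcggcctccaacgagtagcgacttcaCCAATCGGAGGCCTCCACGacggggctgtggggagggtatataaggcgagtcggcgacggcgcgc
Calr, chr8:84846932-84847151, minus strand: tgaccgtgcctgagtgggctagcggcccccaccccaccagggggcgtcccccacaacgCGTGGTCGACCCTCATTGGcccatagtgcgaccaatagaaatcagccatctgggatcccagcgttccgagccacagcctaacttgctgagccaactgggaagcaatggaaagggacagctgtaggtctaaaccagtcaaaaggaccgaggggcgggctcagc
Canx, chr11:50325674-50325893, minus strand: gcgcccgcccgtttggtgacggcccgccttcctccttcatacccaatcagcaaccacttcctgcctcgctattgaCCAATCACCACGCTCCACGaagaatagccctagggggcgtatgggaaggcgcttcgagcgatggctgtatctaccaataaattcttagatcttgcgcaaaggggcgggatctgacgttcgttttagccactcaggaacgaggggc
Hsp90b1, chr10:86705445-86705664, minus strand: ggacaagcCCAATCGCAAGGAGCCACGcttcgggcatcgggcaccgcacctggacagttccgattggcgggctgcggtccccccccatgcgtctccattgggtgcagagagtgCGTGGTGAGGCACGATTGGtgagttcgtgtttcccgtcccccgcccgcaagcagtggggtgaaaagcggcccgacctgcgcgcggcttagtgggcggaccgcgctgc
Dnajc3, chr14:118937712-118937931, plus strand: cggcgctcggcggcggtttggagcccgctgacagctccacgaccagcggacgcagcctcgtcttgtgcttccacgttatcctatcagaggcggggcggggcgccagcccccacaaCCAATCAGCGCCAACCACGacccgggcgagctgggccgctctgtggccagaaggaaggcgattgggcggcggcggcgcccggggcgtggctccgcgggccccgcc

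By exact letters Hsp90b1 held the element 2 times, on opposite strands, and the others once. Copies with changed letters were not searched. Calr, Canx and Dnajc3 fell, while Hsp90b1 and Hspa5 did not pass with all samples. The fourth ER gene that fell, Dnajb11, held the related element, ATTGG and CCACG with 1 base of any kind between them, within its first transcribed bases. That element was in 12 of all promoters (0.0365%), and in none of these promoters did the 2 elements overlap. By GENCODE M21 the transcript Hspa5-002 starts upstream of the RefSeq start used here, so that the element of Hspa5 falls in its first exon. A match describes letters in a window and says nothing of binding.

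The excess of Hspa5 in untreated replicate 1 was listed under 1 of its 2 transcripts. Hspa5-001, which has a shorter last exon, was at 43.7, 42.2 and 49.9 FPKM with BMP4, against 312, 64.8 and 55.6 FPKM without it. Hspa5-002, with the longer last exon, was at 54.7, 55.6 and 57.1 FPKM with BMP4, against 15.01, 63.5 and 71.6 FPKM without it. In untreated replicate 1 Hspa5-001 was the highest of all samples and Hspa5-002 the lowest, and Hspa5-001 made 95.4% of the summed FPKM of both, against 43.2% to 50.5% in the other 5 samples. In GENCODE M21, on the same build, 2531 of the 2613 exonic bases of Hspa5-001 are also in Hspa5-002, which has 1141 of its own. Neither transcript passed (limma adjusted p = 0.376 for Hspa5-001 and 0.733 for Hspa5-002). The 2 estimates divide shared fragments, so the split between them is uncertain.

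**Figure D3:**
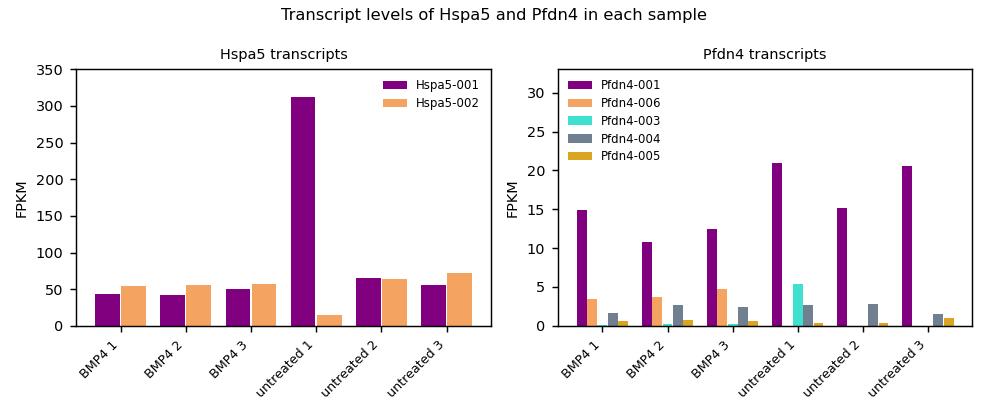
FPKM (y axis, from 0) of the listed transcripts of Hspa5 (left) and of the prefoldin gene Pfdn4 (right) in each sample (x axis). Hspa5-001 stands at 312 FPKM in untreated replicate 1, and Pfdn4-006 has values in the BMP4 samples while it is listed at 0 in the untreated samples.

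Other ER folding genes lie outside the chaperone symbols. Of 28 tested genes of a list of disulfide isomerases, oxidases, proline isomerases, glycan-trimming enzymes and BiP cofactors, 9 fell (32.1%, beside 14.3% of all tested genes), 0 rose and 19 did not pass, with a median log2 fold change of -0.21. By limma, 1 was higher and 14 lower at an unadjusted p under 0.05. Sdf2l1, an ER stress-induced BiP partner, was at 16.2, 15.5 and 17.9 FPKM with BMP4, against 30.6, 31.1 and 27.9 FPKM in untreated cells, with the groups far apart (log2 fold change -0.82 with an SE of 0.070, adjusted p = 1.90e-04 by limma). Pdia3, the disulfide isomerase that works with calnexin and calreticulin, was at 184, 177 and 192 FPKM with BMP4, against 229, 232 and 230.0 FPKM without it (log2 fold change -0.32 with an SE of 0.047, adjusted p = 0.00246 by limma). The isomerase gene P4hb and the oxidase gene Ero1l fell by 0.31 and 0.44 on the log2 scale. The calls of these 4 genes held in every alternative run, and those of Pdia4 and Herpud1 lay near the threshold (adjusted p = 0.0478 and 0.0481 by limma). Both of these were named after their values were seen.

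The 3 mitochondrial genes that fell encode the Hsp70 of the matrix and the Hsp60 chaperonin with its lid. Hspa9, the mitochondrial Hsp70 called mortalin, was at 99.9, 96.2 and 95.8 FPKM with BMP4, against 114, 113 and 112 FPKM in untreated cells. The groups were well apart (log2 fold change -0.22 with an SE of 0.040, adjusted p = 0.00712 by limma). Hspd1, which encodes Hsp60, was at 87.6, 79.4 and 85.8 FPKM with BMP4, against 97.2, 94.2 and 97.996 FPKM without it. Hspe1, which encodes its lid Hsp10, was at 45.3, 42.6 and 49.7 FPKM with BMP4, against 59.3, 54.6 and 55.5 FPKM without it. Both were lower in every BMP4 sample than in every untreated sample, with log2 fold changes of -0.19 (SE 0.050, adjusted p by limma = 0.0274) and -0.30 (SE 0.066, adjusted p by limma = 0.0153). The call of Hspe1 was lost (limma adjusted p in parentheses) without BMP4 replicate 1 (0.0575) or BMP4 replicate 2 (0.0533), and that of Hspd1 without BMP4 replicate 2 (0.0946), BMP4 replicate 3 (0.0512), untreated replicate 1 (0.0532), untreated replicate 2 (0.0606) or untreated replicate 3 (0.0705), and with equal sums (0.0537).

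The 5 mitochondrial J-domain genes did not pass. Dnaja3, the partner of mortalin in the matrix, was at 15.3, 14.5 and 13.8 FPKM with BMP4, against 17.3, 15.6 and 15.2 FPKM without it, with overlapping groups. Dnajc19, part of the import motor, was at 5.47 ± 0.176 FPKM with BMP4 and 6.20 ± 0.595 FPKM without it (SD, n = 3 each; log2 fold change -0.15). Dnajc30, Dnajc11 and Dnajc15 had log2 fold changes of -0.17, -0.034 and 0.022. The sign of Dnajc11 turned without BMP4 replicate 2, and that of Dnajc15 without BMP4 replicate 1 or untreated replicate 3. In a list of 17 other mitochondrial folding and quality control genes, 3 fell (17.6%, beside 14.3% of all tested genes) and 0 rose. The median log2 fold change of that list was -0.056, and by limma 0 were higher and 4 lower at an unadjusted p under 0.05. The matrix protease gene Lonp1 was at 81.2, 81.6 and 81.5 FPKM with BMP4, against 104, 101 and 99.981 FPKM without it (log2 fold change -0.32 with an SE of 0.040, adjusted p = 0.00116 by limma), and the prohibitin gene Phb fell by 0.30 on the log2 scale. Grpel1, the exchange factor of mortalin, fell by 0.20, a call lost (limma adjusted p in parentheses) without BMP4 replicate 1 (0.158), BMP4 replicate 2 (0.13), untreated replicate 1 (0.102) or untreated replicate 2 (0.13), and with equal sums (0.0517). The protease gene Clpp had a log2 fold change of -0.27 and did not pass, but passed without untreated replicate 3 (limma adjusted p = 0.041).

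Hspe1 and Hspd1 are divergent neighbours on chromosome 1, and the stretch between their starts is shown because both genes fell and both promoter windows hold the same heat shock element. The element was searched as GAA, TTC and GAA, each 2 bases of any kind from the next, on both strands, where matches can overlap each other. It was in 198 of all promoters (0.603%). Of the 65 chaperone symbols with a promoter, 4 held it, Hspe1, Hspd1, Dnajb6 and Hsph1. Chaperone genes without a promoter there could not be searched. The 215 bases between the starts, on the strand of Hspe1 with the overlapping matches in capitals (RefSeq, GRCm38.p6), read as follows.
Hspe1-Hspd1, chr1:55087933-55088147, plus strand: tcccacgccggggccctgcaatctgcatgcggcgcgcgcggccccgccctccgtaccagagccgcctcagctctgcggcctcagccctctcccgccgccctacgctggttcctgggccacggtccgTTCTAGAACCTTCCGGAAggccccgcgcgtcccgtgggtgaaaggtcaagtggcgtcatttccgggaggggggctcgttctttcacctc

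Dnajb6 and Hsph1 did not pass (log2 fold changes 0.084 and -0.12). In the annotation Hspd1 and Hspe1 share 112 exonic bases on opposite strands, and the sources used here do not say whether the authors' quantification used strand.

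Of 11 cytosolic Hsp70 and Hsp110 entries, 5 fell (45.5%) and 1 rose (9.09%), beside 14.3% and 13.6% of all tested genes. The constitutive Hsc70 gene Hspa8, the most abundant of them, was at 205, 192 and 212 FPKM with BMP4, against 228, 213 and 212 FPKM in untreated cells, with overlapping groups (log2 fold change -0.10, 95% interval -0.23 to 0.032, adjusted p by limma = 0.226). The stress-inducible Hspa1b was at 22.8, 23.7 and 23.1 FPKM with BMP4, against 30.6, 30.6 and 30.7 FPKM without it. Its samples were tight within each group and well apart between them (log2 fold change -0.39 with an SE of 0.041, adjusted p = 5.79e-04 by limma). Its near-identical neighbour Hspa1a was at 5.52, 5.61 and 5.17 FPKM with BMP4, against 6.81, 6.89 and 6.18 FPKM without it (adjusted p by limma = 0.0318). The division of reads between these 2 genes is uncertain, and the call of Hspa1a was lost (limma adjusted p in parentheses) without BMP4 replicate 1 (0.0823), BMP4 replicate 2 (0.0711), BMP4 replicate 3 (0.0927), untreated replicate 1 (0.0715) or untreated replicate 2 (0.101), and with equal sums (0.0684).

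The Hsp110 genes, whose products exchange nucleotides on Hsp70, moved in opposite directions. Hspa4l was at 14.5, 12.8 and 12.1 FPKM with BMP4, against 8.02, 8.999 and 9.92 FPKM in untreated cells, higher in every BMP4 sample (log2 fold change 0.50 with an SE of 0.093, adjusted p = 0.00713 by limma). Hspa4 was at 57.8, 54.9 and 55.5 FPKM with BMP4, against 65.7, 67.6 and 68.6 FPKM without it, lower in every BMP4 sample (log2 fold change -0.26 with an SE of 0.043, adjusted p = 0.00436 by limma). The third, Hsph1, was at 14.6, 15.3 and 15.7 FPKM with BMP4, against 15.5, 18.5 and 16.0 FPKM without it and did not pass, its groups overlapping. By level (FPKM) Hspa4 stood above both.

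Hspa2, an Hsp70 best known from the testis, was at 6.23, 6.18 and 6.46 FPKM with BMP4, against 8.70, 7.75 and 7.73 FPKM without it, with separate groups (log2 fold change -0.31 with an SE of 0.065, adjusted p = 0.0117 by limma). The atypical Hspa12a was at 6.42, 6.63 and 6.19 FPKM with BMP4, against 7.49, 8.72 and 8.78 FPKM without it (log2 fold change -0.33 with an SE of 0.074, adjusted p = 0.0157 by limma), a call lost (limma adjusted p in parentheses) without BMP4 replicate 1 (0.0532), BMP4 replicate 3 (0.0502) or untreated replicate 2 (0.0571), and with equal sums (0.0517). Hspa12b had a log2 fold change of -0.12 and did not pass. Hspa14, an Hsp70 bound to ribosomes, was at 17.4, 16.9 and 17.4 FPKM with BMP4, against 19.8, 18.4 and 19.7 FPKM without it for the longer locus, with separate groups (adjusted p by limma = 0.0567), and at 2.88, 2.90 and 2.65 FPKM with BMP4, against 2.77, 3.19 and 3.61 FPKM without it for the shorter one inside it, whose groups overlapped. The longer locus passed with trimmed-mean scaling (limma adjusted p = 0.0455). The loci share exons, so their separate values are uncertain, and GENCODE M21 names the shorter one Gm45902 rather than Hspa14.

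Both cytosolic Hsp90 genes were lower in all BMP4 samples, and 1 passed. Hsp90ab1, the constitutive form and the highest of all the chaperone genes by level, was at 396, 389 and 412 FPKM with BMP4, against 461, 444 and 436 FPKM in untreated cells (log2 fold change -0.16 with an SE of 0.049, adjusted p = 0.0454 by limma). Hsp90aa1, the inducible form, was at 126, 122 and 128 FPKM with BMP4, against 149, 130.3 and 139 FPKM without it and did not pass (log2 fold change -0.15 with an SE of 0.058, adjusted p = 0.0941 by limma). The call of Hsp90ab1 was lost when any 1 sample was left out, with limma adjusted p in those fits from 0.0531 to 0.165.

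Of the 4 small heat shock protein genes with values, Hspb6 and Hspb1 rose. Hspb6, a small heat shock protein of smooth and cardiac muscle (chromosome 7, 30552178 to 30555443), was at 15.1, 14.8 and 17.3 FPKM with BMP4, against 8.19, 7.52 and 8.26 FPKM in untreated cells. All BMP4 samples were well above all untreated samples (log2 fold change 0.89 with an SE of 0.074, adjusted p = 1.56e-04 by limma), a 1.97-fold ratio of means. Hspb1 (Hsp27), which binds actin filaments, was at 82.0, 86.7 and 99.1 FPKM with BMP4, against 66.8, 61.0 and 56.4 FPKM without it, with the groups again apart (log2 fold change 0.53 with an SE of 0.088, adjusted p = 0.00432 by limma). Both calls held in every alternative run. The other two genes of the family with values did not pass. Hspb8, which works with BAG3 in selective autophagy, was at 65.5, 62.9 and 67.7 FPKM with BMP4, against 70.5, 64.3 and 63.4 FPKM without it. Hspb2 was at 19.6, 14.7 and 17.4 FPKM with BMP4, against 20.9, 19.0 and 17.7 FPKM without it. Both overlapped between groups. The sign of Hspb8, -0.015 on the log2 scale, turned without BMP4 replicate 2 or untreated replicate 1 and with equal sums. Hspb2 lies head to head with Cryab, the gene of alpha-B crystallin, with which it shares exonic bases on the opposite strand. Cryab, a small heat shock protein gene by family though not by symbol, moved against Hspb6 and Hspb1: it was at 87.6, 86.5 and 102 FPKM with BMP4, against 137, 125 and 119 FPKM without it (log2 fold change -0.46 with an SE of 0.081, adjusted p = 0.00579 by limma).

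Of the 6 BAG genes only Bag3 passed, as higher (16.7%, near the 13.6% higher of all tested genes). Bag3, which links Hsp70 to small heat shock proteins and autophagy, was at 31.9, 32.3 and 32.8 FPKM with BMP4, against 27.02, 26.0 and 25.2 FPKM in untreated cells, with tight and separate groups (log2 fold change 0.30 with an SE of 0.045, adjusted p = 0.00283 by limma), a call that held in every alternative run. Bag1, the most abundant, was at 76.5, 76.5 and 81.9 FPKM with BMP4, against 83.7, 74.8 and 71.0 FPKM without it, with overlapping groups. Bag6, which handles tail-anchored membrane proteins, had a log2 fold change of -0.0087, Bag4 of 0.0076, Bag5 of -0.096 and Bag2, an inhibitor of the ligase CHIP, of -0.14. The signs of Bag1, Bag4 and Bag6 turned when single samples were left out, and that of Bag6 with equal sums. Stub1, which encodes CHIP, was at 99.5 ± 5.17 FPKM with BMP4 and 101 ± 7.72 FPKM without it (SD, n = 3 each) and did not pass.

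**Figure D4:**
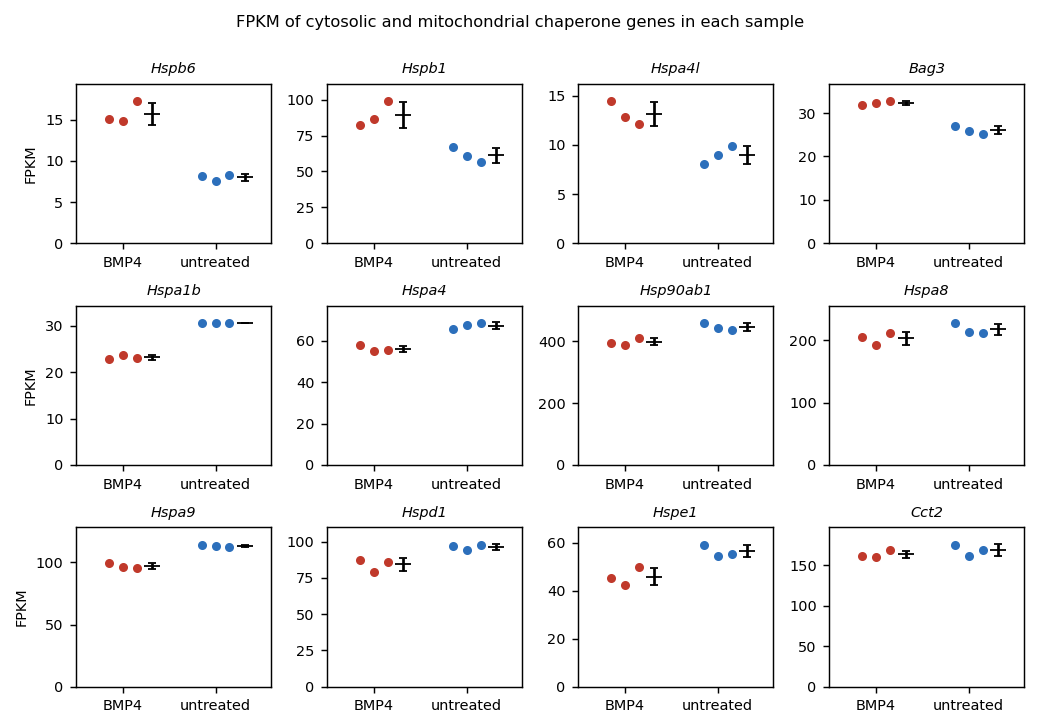
FPKM (y axis, from 0) of 12 cytosolic and mitochondrial genes in the 3 BMP4 and 3 untreated samples (points), with mean and SD beside them. The top row holds the cytosolic genes Hspb6, Hspb1, Hspa4l and Bag3, higher in every BMP4 sample, while Hspa8 and Cct2 overlap between groups.

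Among the 19 J-domain genes of the cytosolic list, 3 fell and 0 rose. The share lower, 15.8%, was near the 14.3% of all tested genes. Dnajc9, a J-domain protein that also chaperones histones, was at 52.9, 48.0 and 54.5 FPKM with BMP4, against 65.2, 61.0 and 61.5 FPKM in untreated cells, with separate groups (log2 fold change -0.27 with an SE of 0.059, adjusted p = 0.0148 by limma), and the call held in every alternative run. Dnajc7 was at 16.1, 16.7 and 15.7 FPKM with BMP4, against 19.9, 18.7 and 18.3 FPKM without it (adjusted p by limma = 0.0222). Dnaja1, a main partner of Hsc70, was at 18.4, 17.9 and 19.3 FPKM with BMP4, against 21.4, 20.8 and 20.5 FPKM without it (adjusted p by limma = 0.0443). Groups of both were apart. The call of Dnajc7 was lost (limma adjusted p in parentheses) without BMP4 replicate 1 (0.0769), BMP4 replicate 3 (0.0684) or untreated replicate 2 (0.0571), and that of Dnaja1 without BMP4 replicate 1 (0.133), BMP4 replicate 2 (0.153), untreated replicate 1 (0.0844), untreated replicate 2 (0.103) or untreated replicate 3 (0.0691), and with equal sums (0.0657). Dnajb1, the Hsp40 that answers to heat shock factor, was at 30.1, 31.7 and 32.3 FPKM with BMP4, against 30.1, 28.0 and 27.1 FPKM without it and did not pass, but passed without untreated replicate 1 (limma adjusted p = 0.0428) and with equal sums (limma adjusted p = 0.0199). Dnajc8 passed with equal sums as well (limma adjusted p = 0.0296). Over all of the list the log2 fold change ran from -0.27 for Dnajc9 to 0.37 for Dnajc12 (median -0.042). The 16 genes that did not pass were Dnajc12, Dnajb2, Dnajc21, Dnajb1, Dnajc27, Dnajc8, Dnajb6, Dnajc24, Dnajc13, Dnaja2, Dnajb5, Dnaja4, Dnajb4, Dnajc2, Dnajc5 and Dnajc17. By unadjusted p under 0.05, 4 of the 19 were higher and 4 lower, beside 2155 higher and 2208 lower of all 10932 tested genes. Dnajc12 was low, at 1.69, 1.32 and 1.73 FPKM with BMP4, against 0.766, 0.830 and 1.47 FPKM without it, and passed only without untreated replicate 3 (limma adjusted p = 0.0149).

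In the ER membrane, Dnajb14, a J-domain protein of ER-associated degradation, was at 4.11, 4.12 and 3.97 FPKM with BMP4, against 2.69, 3.35 and 3.29 FPKM in untreated cells, higher in every BMP4 sample (log2 fold change 0.31 with an SE of 0.081, adjusted p = 0.0296 by limma). Its close relative Dnajb12 was at 19.0, 19.3 and 22.2 FPKM with BMP4, against 18.8, 17.1 and 15.1 FPKM without it, also with separate groups, and passed with equal sums only (limma adjusted p = 0.0303, against 0.107). The call of Dnajb14 was lost (limma adjusted p in parentheses) without BMP4 replicate 1 (0.0916), BMP4 replicate 2 (0.0928) or BMP4 replicate 3 (0.0621). Dnajc14 and Dnajc18 had log2 fold changes of 0.043 and 0.073 and overlapping groups. The 1 rise among these 4 genes made 25.0%, beside 13.6% higher of all tested genes.

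Of the subunits of the TRiC/CCT ring, 0 of 7 tested genes passed by limma, beside 27.9% of all tested genes. By limma 0 of the 7 had an unadjusted p under 0.05. Their log2 fold changes lay between -0.10 for Cct3 and 0.016 for Cct4, and the 95% intervals between -0.23 and 0.17. Each subunit fills the same number of places in the ring, while their FPKM levels differed 5.98-fold with BMP4 and 5.74-fold without it. Cct2 was highest, at 162, 160.3 and 169 FPKM with BMP4, against 176, 162 and 169.6 FPKM without it. Cct3 was lowest, at 26.8, 26.7 and 28.7 FPKM with BMP4, against 31.0, 28.8 and 28.7 FPKM without it. Tcp1, Cct4, Cct5, Cct7 and Cct8 lay between them, at 37.9 to 142 FPKM on average in untreated cells. Cct6a and Cct6b were not analysed here. In prefoldin, which feeds the ring, 0 of 5 genes passed by limma, and 1 had an unadjusted p under 0.05. Pfdn5, the most abundant, was at 109, 102 and 118 FPKM with BMP4, against 109, 97.7 and 98.5 FPKM without it. Pfdn1 was at 49.1, 47.7 and 49.7 FPKM with BMP4, against 63.7, 54.1 and 53.8 FPKM without it. The groups of Pfdn1 did not overlap, and it passed without untreated replicate 1, with trimmed-mean scaling and with equal sums (limma adjusted p = 0.0496, 0.0412 and 0.0426, against 0.0569 otherwise). Pfdn2, Pfdn6 and Pfdn4 had log2 fold changes of -0.093, -0.22 and -0.23. Pfdn4 passed only without untreated replicate 2 (limma adjusted p = 0.0488).

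Other cytosolic co-chaperones and heat shock factors gave 4 falls (17.4%, beside 14.3% of all tested genes) and 0 rises among 23 tested genes. The median log2 fold change was -0.052. By limma, 2 were higher and 6 lower at an unadjusted p under 0.05. Besides Cryab, Stip1, the adaptor that joins Hsp70 and Hsp90, was at 103, 109 and 112 FPKM with BMP4, against 134, 129 and 123 FPKM without it (log2 fold change -0.25 with an SE of 0.053, adjusted p = 0.0124 by limma). The Hsp90 cofactor genes Fkbp5 and Ppid fell by 0.34 and 0.17 on the log2 scale. The call of Stip1 was lost without BMP4 replicate 1 (adjusted p = 0.0553 by limma), and that of Ppid (limma adjusted p in parentheses) without BMP4 replicate 1 (0.119), BMP4 replicate 2 (0.0781), BMP4 replicate 3 (0.115), untreated replicate 1 (0.0795), untreated replicate 2 (0.0642) or untreated replicate 3 (0.0901), and with equal sums (0.134). Hsf1, the heat shock factor itself, was at 35.5, 37.1 and 37.9 FPKM with BMP4, against 35.4, 31.5 and 30.4 FPKM without it and did not pass (adjusted p by limma = 0.078).

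At the level of transcripts, 148 of 178 listed chaperone transcripts reached a mean of 1 FPKM. With the same test over all transcripts, 4 rose and 6 fell, beside 4.03% and 4.53% of all 17213 tested transcripts. The rises were the transcripts Hspb6-001, Hspa4l-001, Bag3-001 and Pfdn4-006, and the falls Calr-001, Canx-001, Hspa1b-001, Hspa4-001, Hspa9-001 and Bag6-001. A second test asked whether a transcript changed unlike its gene, from its log2 level minus that of the gene's other tested transcripts. Of 104 chaperone transcripts from 39 genes, 1 passed, beside 0.293% of all transcripts in that test. It was Pfdn4-006, which begins at an upstream first exon and was at 3.505, 3.76 and 4.68 FPKM with BMP4, while it was listed at 0 in all 3 untreated samples. Pfdn4-006 reached the mean of 1 FPKM only through the BMP4 samples, so a listed difference was a condition of its being tested, and its call (limma adjusted p = 0.0272) supports nothing. Pfdn4-001, the most abundant transcript of the gene, was at 14.9, 10.8 and 12.5 FPKM with BMP4, against 20.9, 15.2 and 20.5 FPKM without it. The call was lost when any 1 sample was left out and with a minimum of 5 FPKM, where Pfdn4-006 is no longer tested, and a listed 0 can be a failed estimate. Bag6-001, a minor transcript of its gene, was at 0.147, 0.472 and 0.430 FPKM with BMP4, against 1.29, 1.55 and 2.15 FPKM without it, while the gene Bag6 did not pass. It too reached the mean of 1 FPKM only through 1 group, the untreated samples, and its call is given no weight. The other 8 called transcripts averaged over 1 FPKM in both groups. Transcript estimates of a gene with a steady total could vary widely within a group: Hsp90aa1-001 was at 137, 29.1 and 102 FPKM with BMP4, against 62.7, 142 and 39.5 FPKM without it.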

How the data were processed

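RNA was measured by sequencing in 6 samples. Per the file headers, the authors deposited FPKM per gene and per transcript. Per the submitters' processing notes, the tools were FastQC, cutadapt, HISAT2 and StringTie, with GRCm38 as the build; the sources used here give no versions or settings and do not say how multiply mapped reads were handled. In the gene table the higher of the 2 group means was never below 0.502 FPKM. An emptied line in each of the 2 tables was skipped. Low values of single-transcript genes fell within 0.05 of whole multiples of a best step in 25.0% to 30.0% of cases, so no whole reads were recovered and the depth per sample is unknown; precision is known only from the 3 replicates.

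From the FPKM, log2(FPKM + 1) was tested with limma 3.58.1 in R 4.3.3 (two-sided, with variance trend) for features averaging 1 FPKM or more, with Benjamini-Hochberg adjustment over the whole table and a threshold of 0.05. A fold change on this scale understates the change of low genes. The unequal-change test used a spread per transcript without the trend. Each test was checked on simulated data. The tables held no counts, so no count test was made. The members and lists were chosen with earlier results of these data known. Genes named were all tested members of the ER lumen, mitochondrial, Hsp90, Hsp70, small heat shock protein and BAG lists, the largest changes of the rest, and up to 4 genes of each further list by adjusted p; others named were chosen after their values were seen. Alternatives were another pseudocount (0.1), no filter, a minimum of 5 FPKM, trimmed-mean scaling, equal sums, a replicate block and leaving out each sample. Promoter sequences are from RefSeq (GRCm38.p6), matched by symbol.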

Additional observations from a re-analysis of the deposited data

How the results depend on the processing

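Of 21 chaperone genes that passed, 10 kept their call in every alternative in which they were tested (Hspb6, Hspb1, Hspa4l, Bag3, Calr, Canx, Hspa1b, Hspa4, Hspa2 and Dnajc9), and 0 reversed. With 1 sample left out, the number of chaperone genes lower with BMP4 was 9 to 12 (16 with all samples) and higher 4 to 6 (5). By compartment the numbers lower were 2 to 3 in the ER lumen (4), 4 to 7 in the cytosol (9) and 1 to 2 in mitochondria (3), and the numbers higher 0 to 0, 4 to 5 (4) and 0 to 0. Transcripts that rose were 2 to 4 (4), fell 2 to 5 (6), and changed unequally 0 to 0 (1). With fewer samples fewer genes passed in the whole table too. With the replicate number as a block, 8 chaperone genes were lower (ER lumen 2, cytosol 5, mitochondria 1), 4 were higher, 2 transcripts rose, 0 fell and 0 changed unequally; over all genes 994 were higher and 1046 lower. Single genes whose call was absent under the block were Hspa1a (0.0692), Hsp90ab1 (0.188), Dnajc3 (0.135), Dnajb11 (0.0521), Hspd1 (0.0767), Hspa9 (0.0548), Dnajb14 (0.0715), Dnajc7 (0.0725), Dnaja1 (0.133), Stip1 (0.0678), Ppid (0.134) and Grpel1 (0.136), with the limma adjusted p in parentheses. Correlations of the deviations of same-numbered samples were -0.149, 0.05 and -0.221, and those of differently numbered samples ran from -0.102 to 0.216. With 3 samples per group these values cannot tell whether samples were handled in pairs. With equal sums 8 genes were higher, where the median log2 fold change of all genes was 0.035, and with a minimum of 5 FPKM 0 transcripts changed unequally. A trimmed-mean scaling gave 19 lower and 5 higher.

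Values that turned sign belonged to genes that did not pass. With equal sums they were Bag6 (0.032), Hspb8 (0.026), Dnajc16 (0.0027), Dnajc13 (0.023) and Cct7 (0.0040). Without single samples the log2 fold change ran from -0.060 to 0.058 for Bag4, from -0.035 to 0.031 for Bag6, from -0.059 to 0.065 for Dnajc15, from -0.24 to 0.13 for Dnajb4, from -0.044 to 0.032 for Hspb8, from -0.091 to 0.043 for Dnajc11, from -0.027 to 0.11 for Dnajc24, from -0.13 to 0.060 for Dnajc13, from -0.041 to 0.057 for Cct4, from -0.074 to 0.14 for Dnajc4, from -0.047 to 0.068 for Hspa13, from -0.096 to 0.013 for Dnajb5, from -0.13 to 0.023 for Dnajc22, from -0.061 to 0.018 for Dnajc16 and from -0.015 to 0.10 for Bag1. The cause was not tested. The unknown depth limits what can be said of low transcripts.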

Other observations

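Besides Hspa5, single libraries stood apart for 2 folding genes that did not pass. Txndc5, an ER disulfide isomerase gene, was at 32.6, 34.3 and 33.1 FPKM with BMP4, against 31.6, 76.2 and 33.7 FPKM without it, with untreated replicate 2 above all other samples. Dnajb4, a cytosolic J-domain gene, was at 3.46, 6.38 and 6.48 FPKM with BMP4, against 5.73, 5.76 and 5.87 FPKM without it, with BMP4 replicate 1 below all other samples, and its log2 fold change was -0.11 with that sample and 0.13 without it. Pfdn4-003, a transcript of the prefoldin gene Pfdn4, was listed at 5.34 FPKM in untreated replicate 1 and at 0 in the other untreated samples.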
